A study of Pogona vitticeps with 24 samples.

Results

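The comparison described here is that of *Sca*/+ with wild-type (WT) dental mesenchyme from the anterior jaw of bearded dragon (*Pogona vitticeps*) hatchlings, across all genes with sufficient expression. Genes entered it when their mean over the 7 usable tissue columns of the deposited table reached 3 log2 CPM, which kept 9987 of 11126 genes. CPM is a gene's count scaled to the size of its library after the authors' normalization, so the columns need not have equal sums. *Sca*/+ animals are heterozygous for the *Scaleless* mutation and so carry 1 mutated copy of the *EDA* locus, and WT animals carry none. The anterior teeth are pleurodont in WT, meaning that they are attached to the inner side of the jaw bone and are replaced, whereas the posterior teeth are acrodont, fused to the crest of the jaw and not replaced. The tissue was cut by laser capture microdissection from around the successional dental lamina of 3 *Sca*/+ and 3 WT hatchlings, and epithelium and posterior tissue came from the same animals. The study describes large, acrodont-like teeth at the anteriormost dentary position of mutants. The dentition of the *Sca*/+ animals was not typed in detail, so the mutant group may mix degrees of the phenotype. From a rough look before sectioning, the study judged that all 3 probably had the abnormal anterior dentary phenotype.

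The mesenchyme of a tooth germ consists of cells derived from the neural crest that condense beneath the dental epithelium and later form the dental papilla, which makes dentin, and the follicle, which makes the attachment tissues. Both layers exchange signals of the Wnt, bone morphogenetic protein (BMP), fibroblast growth factor (FGF) and Hedgehog families. Ectodysplasin (EDA) is a ligand of the tumor necrosis factor family whose receptor, EDAR, acts through the adaptor EDARADD and the IKK kinases on the transcription factor NF-kappaB, and in mouse EDAR is found mainly in the epithelium.

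Each group is represented by 1 value per gene, so no gene has an error between animals and no test was made. In both columns the values are whole multiples of a smallest step, worth 1.30 CPM in the *Sca*/+ column and 0.722 CPM in the WT column, and the columns add up to 789353 and 1212704 steps. The median gene of the table had 26 steps in *Sca*/+ and 46 in WT. Steps were taken as counts to give each difference, *Sca*/+ minus WT in log2 units, an exact (Clopper-Pearson) 95% interval. These counting intervals, given in parentheses, leave out the spread between animals and that of amplification. A gene was called higher or lower when the difference reached 1 log2 unit, and "rose" and "fell" are used of such genes alone.

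By this rule 1148 of the 9987 genes were higher in *Sca*/+ anterior mesenchyme (11.5%) and 836 were lower (8.37%). Counts of list members past the rule, given below, are to be read against these shares. Differences were above 0 for 5250 of the 9987 genes and below 0 for 4733, against which counts of signs are to be read. The counting interval also lay above 0 for 1012 of the higher genes and below 0 for 698 of the lower genes, and it lay wholly beyond 1 log2 unit for 206 and 125 of them. Differences of at least 3 log2 units were found for 20 genes in the higher and 31 in the lower direction. The median difference of all genes was 0.04. The 5 nearest genes inside the upper threshold differed by 1.0011 and the 5 nearest outside it by 0.9983 to 0.9999, and at the lower threshold these differences were -1.0061 to -1.0035 and -0.9989 to -0.9978. The balance of the 2 directions depended on the scale, and the deposited values of these genes added up to 1018947 CPM in *Sca*/+ and 867676 CPM in WT. When the columns were scaled to equal sums without the cytosolic ribosomal proteins, every difference moved by -0.19, and 793 genes were higher and 1249 lower, which made 38.8% of the called genes higher in place of 57.9%. Every list median is 0.19 lower on that scale, so that 11 list medians between 0 and 0.19 turn negative. In this bulk tissue, fewer cells of a type and less RNA per cell cannot be told apart.

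**Figure D1:**
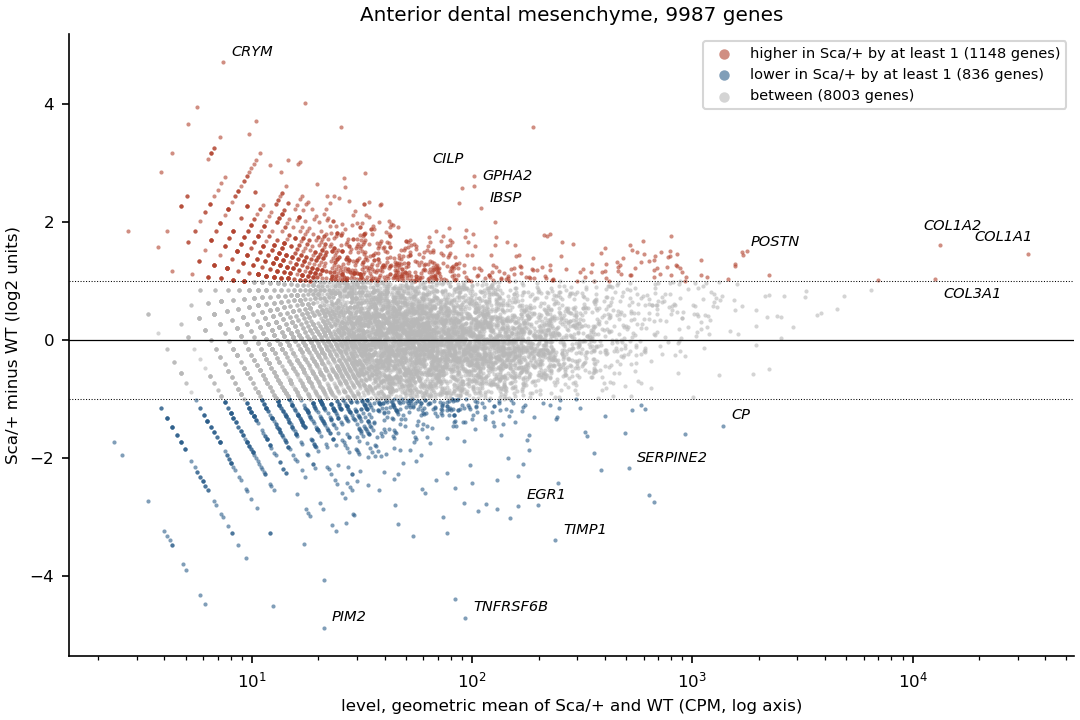
Difference between *Sca*/+ and WT anterior mesenchyme (vertical axis, log2 units) against the geometric mean of both levels (horizontal axis, CPM, log scale) for the 9987 genes compared, with dotted lines at 1 and -1. Red points are the 1148 genes higher in *Sca*/+, blue points the 836 lower and gray points the remainder. Collagen genes stand at the right above the upper line, and *TNFRSF6B* and *PIM2* are among the points farthest below the lower line.

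The share of genes past the rule fell with the level. In the lowest of 5 equal bins of level, 21.8% of genes were higher and 15.3% lower, whereas in the highest bin, from 99.8 CPM upward, 6.41% were higher and 3.45% lower. The lowest bin also had the largest median difference of the 5 bins, 0.15, against 0.01 in the highest bin. Among the 1272 genes listed under a LOC identifier with no symbol, 220 were higher and 137 lower, against 1148 and 836 of all 9987 genes.

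The label of the tissue fits its markers. The 33 compared markers of mesenchyme and fibroblasts added up to 144861 CPM in *Sca*/+ anterior mesenchyme and 67259 CPM in WT anterior mesenchyme, against 14766 CPM and 16932 CPM in the matching *Sca*/+ and WT epithelium. The 29 compared markers of epithelium added up to 10973 CPM in *Sca*/+, against 7336 CPM in WT anterior mesenchyme, below the 23626 CPM and 18375 CPM of *Sca*/+ and WT anterior epithelium but well above 0, so both mesenchyme columns hold RNA of these genes. Of these epithelial markers 4 rose (13.8%, against 11.5% of all genes), among them *CLDN7*, *KRT8* and *SFN*, and *ELF3* fell (3.4%, against 8.37%). Their median difference was 0.62, with 22 of the 29 above 0. The median was 0.68 for the markers of mesenchyme and fibroblasts and 0.04 for all genes. *KRT8*, a keratin of simple epithelia, had 1104 CPM in *Sca*/+ against 414 CPM in WT, a difference of 1.41 (1.26 to 1.57). The part of epithelial RNA in the differences of other genes was not tested.

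The 20 genes that rose most securely were ranked by the bound of the counting interval nearest to 0. *CILP*, a matrix protein of cartilage and connective tissue, stood at 268 CPM in *Sca*/+ and 39.0 CPM in WT, a difference of 2.78 (2.34 to 3.24). *GPHA2*, the alpha subunit of the glycoprotein hormone thyrostimulin, had 251 CPM in *Sca*/+ against 41.1 CPM in WT (2.61, 2.18 to 3.06), and *CRTAC1*, a secreted protein known from human cartilage, 67.7 CPM in *Sca*/+ against 10.1 CPM in WT (2.74, 1.87 to 3.71). *KIF26B*, a member of the kinesin family, reached 255 CPM in *Sca*/+ and 63.5 CPM in WT (2.01, 1.64 to 2.38). Some of the 20 encode metabolic enzymes. *GCAT*, which splits a product of threonine in mitochondria, had 219.8 CPM in *Sca*/+ against 36.8 CPM in WT (2.58, 2.12 to 3.06), *SARDH*, which oxidizes sarcosine, 32.5 CPM in *Sca*/+ against 2.89 CPM in WT (3.49, 1.96 to 5.48), and the ribokinase *RBKS* 22.1 CPM in *Sca*/+ against 1.44 CPM in WT (3.94, 1.86 to 7.10). The WT values of *SARDH* and *RBKS* rest on 4 and 2 steps, as their wide intervals show.

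Other genes of the 20 have various roles. *TPP1*, a lysosomal peptidase, had 87.2 CPM in *Sca*/+ and 12.3 CPM in WT (2.83, 2.04 to 3.69), and *MOGS*, which trims sugar chains in the endoplasmic reticulum (ER), 33.8 CPM in *Sca*/+ against 4.33 CPM in WT (2.97, 1.65 to 4.54). *MLST8*, a subunit of both mTOR complexes, differed by 2.98 (1.85 to 4.30), *PARK7*, which protects cells from oxidation, by 3.04 (1.84 to 4.47), and *NAXE*, which repairs damaged NADH, by 3.02 (1.89 to 4.34). *DTX2*, a ubiquitin ligase of the Notch pathway in mammals, stood at 37.7 CPM in *Sca*/+ against 2.89 CPM in WT (3.71, 2.20 to 5.68). The remaining members of the 20 were *CRYM*, *RHOB*, *IBSP*, *BABAM1*, *JAGN1*, *KIAA1161* and *RCE1*. Over these 20 genes the median level was 48.1 CPM in *Sca*/+, against 6.85 CPM in WT anterior mesenchyme, which follows from their choice, and it was 27.8 CPM in *Sca*/+ and 15.3 CPM in WT posterior mesenchyme. In anterior epithelium the median level was 35.4 CPM in *Sca*/+ and 13.5 CPM in WT.

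**Figure D2:**
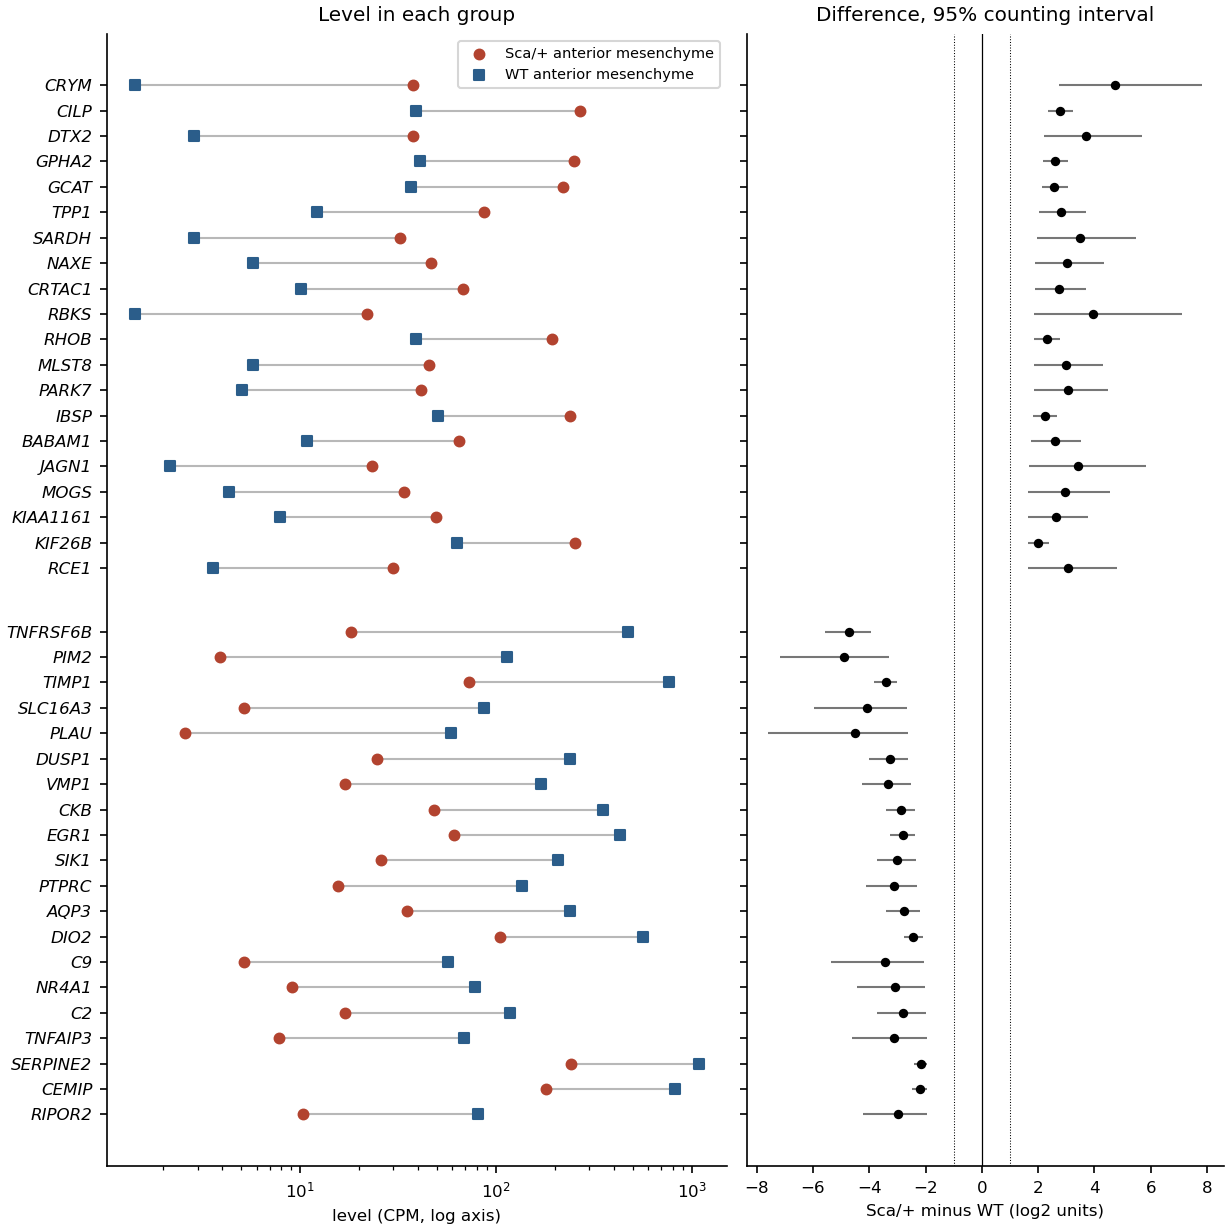
Left, level of the 20 leading genes of each direction in *Sca*/+ (red circles) and WT (blue squares) anterior mesenchyme (CPM, log axis, 1 value per group). Right, difference with its 95% counting interval (log2 units, dotted lines at 1 and -1). All 40 intervals lie beyond the dotted lines because the genes were ranked by them, and those of *CRYM*, *RBKS* and *PLAU* are the widest.

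The 20 genes that fell most securely were ranked in the same way. *TNFRSF6B*, a decoy receptor that captures death ligands in humans, had 18.2 CPM in *Sca*/+ and 476 CPM in WT, a difference of -4.71 (-5.59 to -3.95). *TIMP1*, an inhibitor of matrix metalloproteases, had 72.8 CPM in *Sca*/+ against 768 CPM in WT (-3.40, -3.81 to -3.01). *SERPINE2*, which inhibits thrombin and plasminogen activators, had 242 CPM in *Sca*/+ against 1089 CPM in WT (-2.17, -2.40 to -1.95), and the plasminogen activator *PLAU* itself 2.60 CPM in *Sca*/+ against 59.2 CPM in WT, or 2 steps in *Sca*/+ (-4.51, -7.58 to -2.61). *CEMIP*, which is needed for the breakdown of hyaluronan, stood at 179.5 CPM in *Sca*/+ and 828 CPM in WT (-2.21, -2.47 to -1.95). The lactate exporter *SLC16A3* had 5.20 CPM in *Sca*/+ against 87.3 CPM in WT (-4.07, -5.97 to -2.68), the creatine kinase *CKB* 48.1 CPM in *Sca*/+ against 351 CPM in WT (-2.87, -3.39 to -2.38), and the water and glycerol channel *AQP3* 35.1 CPM in *Sca*/+ against 239 CPM in WT (-2.77, -3.39 to -2.20). *VMP1*, a membrane protein of autophagosome formation, differed by -3.33 (-4.26 to -2.52), the kinase *SIK1* by -3.00 (-3.73 to -2.34), and *RIPOR2*, an inhibitor of the GTPase RhoA, by -2.97 (-4.22 to -1.94). Over the 20 genes the median level was 17.6 CPM in *Sca*/+, against 188.7 CPM in WT anterior mesenchyme, again fixed by the choice, and it was 24.9 CPM in *Sca*/+ and 24.6 CPM in WT posterior mesenchyme. In anterior epithelium the median level was 25.4 CPM in *Sca*/+ and 57.7 CPM in WT.

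Type I and III collagens, which build the fibrils of connective tissue, bone and dentin, were the most abundant transcripts of the tissue and rose in *Sca*/+. *COL1A1* had 55449.8 CPM in *Sca*/+ and 20185 CPM in WT, a difference of 1.46 (1.44 to 1.48). *COL1A2* had 23333 CPM in *Sca*/+ against 7625 CPM in WT (1.61, 1.58 to 1.65), and *COL3A1* 18098 CPM in *Sca*/+ against 8872 CPM in WT (1.03, 0.99 to 1.06). Together these 3 genes made up 9.44% of the *Sca*/+ column and 4.19% of the WT column. Of the 33 compared genes of fibrillar collagens and their processing, 13 rose and none fell, against 11.5% and 8.37% of all genes, and their median difference was 0.63, against 0.04 for all genes. The 13 included enzymes that modify collagen chains in the ER. *PLOD2*, a lysyl hydroxylase, had 126 CPM in *Sca*/+ against 47.6 CPM in WT (1.41, 0.94 to 1.88), and *P4HA2*, a prolyl hydroxylase subunit, 104 CPM in *Sca*/+ against 41.9 CPM in WT (1.31, 0.81 to 1.83). The other members that rose were *FKBP10*, *P3H3*, *SERPINH1*, *LOXL3*, *COLGALT1*, *PPIB*, *COL5A1* and *SPARC*. *P4HB*, which pairs with the prolyl hydroxylase subunits, did not pass the rule, with 721 CPM in *Sca*/+ and 655 CPM in WT (0.14, -0.02 to 0.29).

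The collagen difference had the other sign in the posterior jaw. *COL1A1* had 31881 CPM in *Sca*/+ and 78297 CPM in WT posterior mesenchyme (-1.30, -1.31 to -1.28), and *COL1A2* 13286 CPM in *Sca*/+ against 27293 CPM in WT (-1.04, -1.06 to -1.01). The medians of the collagen list were 0.63 in anterior mesenchyme, -0.40 in posterior mesenchyme and 0.03 in anterior epithelium. Whether these differences differ from each other was not tested.

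Among the other collagens, 2 of 17 rose (11.8%, near the 11.5% of all genes) and none fell, and the median of 0.26 was -0.0495 after adjustment for level. *COL13A1*, a transmembrane collagen, had 31.2 CPM in *Sca*/+ against 10.1 CPM in WT (1.63, 0.62 to 2.69), and *COL21A1* 97.6 CPM in *Sca*/+ against 46.9 CPM in WT (1.06, 0.56 to 1.56). The abundant collagen VI chain *COL6A3*, of beaded filaments, stood at 5431 CPM in *Sca*/+ against 3786 CPM in WT, a difference of 0.52 (0.46 to 0.58) that did not reach the rule.

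Elastic fiber and matricellular genes were mixed, with 9 of 36 higher, 3 lower and a median of 0.49. *POSTN*, periostin, a matrix protein of the periodontal ligament and periosteum in mammals, had 2814 CPM in *Sca*/+ and 1003 CPM in WT (1.49, 1.39 to 1.59). *AEBP1*, which binds collagen fibrils, had 1209.8 CPM in *Sca*/+ against 430.2 CPM in WT (1.49, 1.34 to 1.64), *SMOC2*, a calcium-binding matrix protein, 89.8 CPM in *Sca*/+ against 23.8 CPM in WT (1.91, 1.30 to 2.56), and *LTBP4*, which holds latent TGF-beta in elastic fibers, 268 CPM in *Sca*/+ against 98.9 CPM in WT (1.44, 1.12 to 1.76). Adhesive glycoproteins went both ways, and *THBS4* rose beside *POSTN*. *TNC*, tenascin C, fell to 42.9 CPM in *Sca*/+, against 136 CPM in WT (-1.67, -2.25 to -1.13), *EFEMP1* and *THBS1* also fell, and fibronectin, *FN1*, had 1886 CPM in *Sca*/+ against 2642 CPM in WT (-0.49, -0.57 to -0.40).

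Proteoglycan and hyaluronan genes showed 7 members of 29 higher and 4 lower, with a median of 0.46. *SDC3*, a syndecan, had 63.7 CPM in *Sca*/+ and 21.6 CPM in WT (1.56, 0.87 to 2.26), whereas the syndecans *SDC1* and *SDC4* fell, *SDC1* with 75.5 CPM in *Sca*/+ against 209 CPM in WT (-1.47, -1.90 to -1.06) and *SDC4* with 285 CPM in *Sca*/+ against 852 CPM in WT (-1.58, -1.80 to -1.37). *HAPLN1*, which links hyaluronan to proteoglycans, had 89.8 CPM in *Sca*/+ against 39.7 CPM in WT (1.18, 0.64 to 1.72). The abundant small proteoglycans decorin and lumican had positive differences short of the rule, 0.73 (0.66 to 0.80) for *DCN* and 0.57 (0.48 to 0.67) for *LUM*. Of the 40 matrix proteases and inhibitors, 4 rose and 6 fell (10.0% and 15.0%, against 11.5% and 8.37% of all genes). Their median was 0.19, and 26 were above 0. The 4 were *SERPINF1*, *ADAMTSL4*, *ADAMTS17* and *ADAMTS12*, and the 6 were *PLAU*, *TIMP1*, *ADAMTS5*, *SERPINE2*, *ADAM28* and *ADAMTS1*. *ADAMTS5*, which cleaves aggrecan, had 20.8 CPM in *Sca*/+ and 101 CPM in WT (-2.28, -3.13 to -1.53). The gelatinase *MMP2* stood at 1353 CPM in *Sca*/+ against 1018 CPM in WT (0.41, 0.29 to 0.53).

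Of 12 compared markers of osteoblasts and odontoblasts, 2 rose (16.7%, against 11.5% of all genes) and none fell. *IBSP*, bone sialoprotein, which seeds mineral in bone and cementum, had 238 CPM in *Sca*/+, against 50.5 CPM in WT anterior mesenchyme (2.24, 1.83 to 2.66), and in posterior mesenchyme it had 373 CPM in *Sca*/+ and 351 CPM in WT. *OMD*, osteomodulin, had 306 CPM in *Sca*/+ against 116 CPM in WT (1.40, 1.10 to 1.69), and *BGLAP*, osteocalcin, 208 CPM in *Sca*/+ against 119 CPM in WT (0.81, 0.48 to 1.13). *RUNX2*, the transcription factor that sets osteoblast fate, had close levels of 354 CPM in *Sca*/+ and 358 CPM in WT (-0.02, -0.24 to 0.20).

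Transcription factors of tooth mesenchyme known from mouse had 6 of 36 compared members higher (16.7%, against 11.5% of all genes). Of the same list 1 was lower (2.8%, against 8.37%), and the median was 0.32. *PITX1*, a homeobox gene of the hindlimb and the lower jaw, had 84.6 CPM in *Sca*/+ and 20.9 CPM in WT (2.01, 1.36 to 2.70). *OSR2*, which limits the row of teeth in mouse, had 61.1 CPM in *Sca*/+ against 25.3 CPM in WT (1.28, 0.61 to 1.95), *MSX1*, needed for tooth germs to pass the bud stage in mouse, 83.3 CPM in *Sca*/+ against 39.7 CPM in WT (1.07, 0.53 to 1.62), and *PRRX1*, of skeletal precursors, 209 CPM in *Sca*/+ against 102 CPM in WT (1.04, 0.71 to 1.38). *SOX4* fell, to 7.81 CPM in *Sca*/+ against 19.5 CPM in WT (-1.32, -2.89 to -0.01), on few steps.

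Hedgehog signals from the dental epithelium are read in the mesenchyme through the receptor PTCH1 and the transducer SMO, and GLI1 is both a transcription factor and a target of the pathway. In this list 5 of 18 members rose (27.8%, against 11.5% of all genes) and none fell. A difference above 0 was found for 17, against 5250 of all 9987 genes, and the median was 0.61. *GLI1* had 35.1 CPM in *Sca*/+ and 8.66 CPM in WT (2.02, 0.99 to 3.14), against 13.6 CPM and 19.5 CPM in *Sca*/+ and WT posterior mesenchyme. *SMO* had 101 CPM in *Sca*/+ against 44.0 CPM in WT (1.20, 0.70 to 1.71), and *BOC*, a co-receptor, 459 CPM in *Sca*/+ against 206 CPM in WT (1.16, 0.93 to 1.39). The ligand-modifying enzyme *HHAT* and the kinesin *KIF7* completed the 5, while the co-receptor *CDON* differed by 0.12 (-0.16 to 0.40). The ligand gene *SHH* is not among the genes of the table. The list medians in posterior mesenchyme and anterior epithelium were -0.23 and 0.32.

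Wnt pathway genes went both ways, with 8 of 52 higher, 6 lower and a median of 0.22. These are 15.4% and 11.5% of the list, against 11.5% and 8.37% of all genes. Frizzled receptors were on both sides. *FZD7* had 66.3 CPM in *Sca*/+ and 18.0 CPM in WT (1.88, 1.16 to 2.63) and *FZD2* 178 CPM in *Sca*/+ against 59.2 CPM in WT (1.59, 1.19 to 2.00), whereas *FZD4* fell, with 7.81 CPM in *Sca*/+ against 30.3 CPM in WT (-1.96, -3.48 to -0.72). *FRZB*, a secreted Wnt antagonist, rose, with 19.5 CPM in *Sca*/+ against 5.77 CPM in WT (1.76, 0.43 to 3.20), and the antagonists *WIF1* and *SFRP4* fell. *CTNNB1*, beta-catenin, the transducer of the pathway, had 640.0 CPM in *Sca*/+ against 367 CPM in WT (0.80, 0.62 to 0.99).

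In the BMP and TGF-beta list 4 of 43 members rose (9.3%, near the 11.5% of all genes) and 1 fell (2.3%, against 8.37%). *ID4*, of a family induced by BMPs, had 45.5 CPM in *Sca*/+ against 13.0 CPM in WT (1.81, 0.95 to 2.72), the ligand *TGFB3* 59.8 CPM in *Sca*/+ against 23.8 CPM in WT (1.33, 0.65 to 2.02), and *SKIL*, a repressor of SMAD proteins that TGF-beta induces, 52.0 CPM in *Sca*/+ against 134 CPM in WT (-1.37, -1.90 to -0.87). Of 20 FGF pathway genes none rose and 1 fell, *SPRY4*, a feedback inhibitor, with 7.81 CPM in *Sca*/+ against 53.4 CPM in WT (-2.77, -4.27 to -1.58). The mesenchymal ligand *FGF7* had 75.5 CPM in *Sca*/+ against 134 CPM in WT (-0.82, -1.27 to -0.39). Among other growth factor signals 1 of 35 rose and 4 fell. *IGFBP5*, which binds insulin-like growth factors, rose, with 699 CPM in *Sca*/+ against 323 CPM in WT (1.11, 0.93 to 1.30). Those that fell were *NRG1*, *IGFBP3*, *GAS6* and *VEGFA*, and *NRG1*, a ligand of ERBB receptors, had 11.7 CPM in *Sca*/+ against 51.2 CPM in WT (-2.13, -3.32 to -1.12).

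Guidance molecules had 8 of 43 members higher and 1 lower, with a median of 0.46. The ephrin ligand *EFNA1* had 46.8 CPM in *Sca*/+ and 10.1 CPM in WT (2.21, 1.29 to 3.22), the netrin receptor *UNC5B* 59.8 CPM in *Sca*/+ against 15.9 CPM in WT (1.91, 1.15 to 2.72), and the ephrin receptor *EPHB2* 29.9 CPM in *Sca*/+ against 9.38 CPM in WT (1.67, 0.63 to 2.78). *EPHB3*, *EPHB4*, *EFNB3*, *SEMA3B* and *SEMA3F* also rose, and *EFNA3* fell. Of 24 cell adhesion genes of mesenchyme 5 rose and 1 fell. *NCAM1*, a neural cell adhesion molecule that dental and other mesenchyme also expresses, had 328 CPM in *Sca*/+ against 162 CPM in WT (1.02, 0.75 to 1.29), and *L1CAM*, which fell, 48.1 CPM in *Sca*/+ against 109.7 CPM in WT (-1.19, -1.75 to -0.66). Notch and Hippo pathway genes had few members past the rule, 2 higher of 24 and none lower for Notch, and 1 higher and 1 lower of 21 for Hippo. Their medians were both 0.12, and both were -0.07 when scaled without ribosomal proteins.

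**Figure D3:**
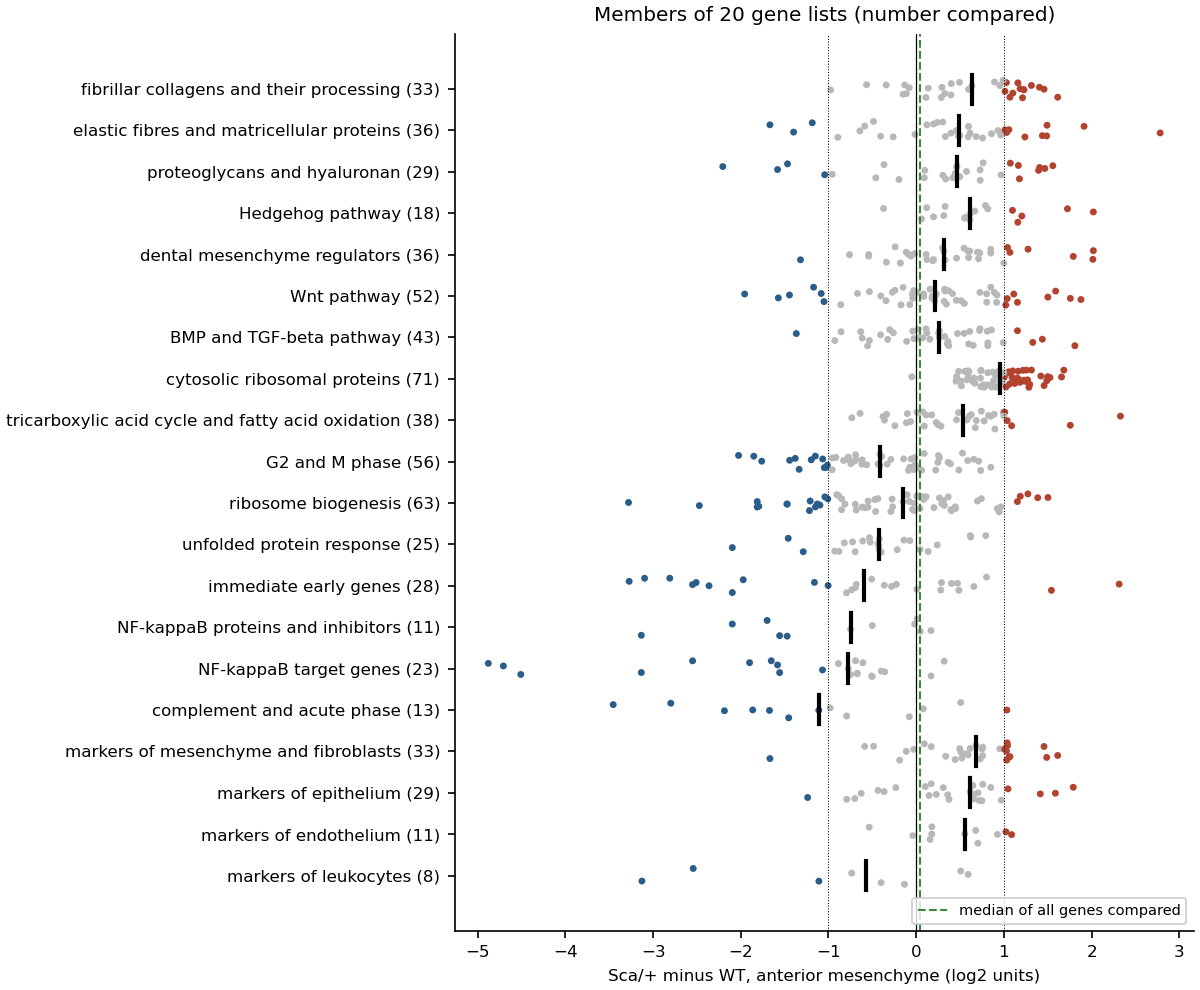
Difference of every compared member of 20 gene lists (points, *Sca*/+ minus WT in log2 units), with the list's median as a black bar, the number compared in parentheses and the median of all genes as a dashed line. Red points are members higher by at least 1 and blue points members lower by at least 1. Collagen, Hedgehog and ribosomal protein lists have no blue point, and the NF-kappaB lists no red point.

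The ligand of the mutated pathway was measured at a low level. *EDA* had 16.9 CPM in *Sca*/+ and 5.05 CPM in WT, which are 13 steps in *Sca*/+ and 7 in WT, a difference of 1.74 (0.31 to 3.31). It was the only gene past the rule among the 12 compared of the EDA pathway. In the other tissues the difference of *EDA* was below 0, at -0.29 (-1.01 to 0.44) in anterior epithelium and -0.84 (-2.16 to 0.47) in posterior mesenchyme. The study, with 3 replicates a group, reported no significant difference in EDA pathway genes between the genotypes. The adaptor *EDARADD* had 9.11 CPM in *Sca*/+ against 14.4 CPM in WT (-0.66, -2.15 to 0.64), and the receptor gene *EDAR* is not among the genes of the table, nor are *FGF20*, an EDA target in mouse, and *ALX1* and *SIX3*, which the study used as markers of tooth type. Subunits and kinases downstream of the receptor had close levels, with differences of -0.23 (-0.77 to 0.29) for *CHUK*, -0.29 (-1.05 to 0.43) for *IKBKB*, -0.04 (-0.90 to 0.78) for *IKBKG* and 0.31 (-0.13 to 0.75) for *MAP3K7*. *TRAF6* differed by 0.23 (-0.81 to 1.23), *TAB1* by 0.04 (-1.11 to 1.13), *TAB2* by 0.01 (-0.38 to 0.40) and *TAB3* by 0.43 (-0.30 to 1.15), and the related receptors *TNFRSF19* and *TNFRSF11A* by 0.32 (-0.02 to 0.66) and 0.22 (-1.02 to 1.40).

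Of 11 genes of NF-kappaB proteins and their inhibitors, none rose and 5 fell, with a median of -0.75. All 5 encode regulators of the pathway rather than its main DNA-binding subunits. *TNFAIP3* (A20), an enzyme that shuts the pathway off, had 7.81 CPM in *Sca*/+ and 68.6 CPM in WT (-3.13, -4.62 to -1.96), and its partner *TNIP1* 189 CPM in *Sca*/+ against 555 CPM in WT (-1.56, -1.82 to -1.30). *NFKBIZ*, a nuclear IkappaB protein, had 98.9 CPM in *Sca*/+ against 321 CPM in WT (-1.70, -2.07 to -1.35), *BCL3*, of the same family, 9.11 CPM in *Sca*/+ against 39.0 CPM in WT (-2.10, -3.48 to -0.96), and the deubiquitinase *CYLD* 9.11 CPM in *Sca*/+ against 25.3 CPM in WT (-1.47, -2.89 to -0.28). The inhibitor *NFKBIA* had 45.5 CPM in *Sca*/+ against 76.5 CPM in WT (-0.75, -1.34 to -0.19), short of the rule. The subunits differed by -0.50 (-0.96 to -0.06) for *NFKB1*, 0.17 (-0.31 to 0.64) for *NFKB2* and -0.02 (-0.82 to 0.75) for *RELA*, the inhibitor *NFKBIB* by 0.05 (-0.48 to 0.56), and *OTULIN*, which trims linear ubiquitin chains, by 0.01 (-0.88 to 0.86). In anterior epithelium the list had a median of -0.77 and in posterior mesenchyme of 0.57.

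Genes that NF-kappaB induces in mammals had 10 of 23 members lower and none higher, with a median of -0.77. Beside *TNFRSF6B*, *PLAU*, *TNFAIP3* and *TNIP1* these were the survival kinases *PIM1* and *PIM2*, *CEBPB*, *IRAK2*, *SDC4* and *BIRC2*. The list was written with earlier results of these data known and holds leading genes such as *TNFRSF6B* and *PIM2*. Its count is therefore a description and no independent support. The list median was -0.77 in anterior epithelium and -0.18 in posterior mesenchyme. *PIM2* had 3.90 CPM in *Sca*/+, or 3 steps, and 115 CPM in WT (-4.88, -7.17 to -3.30). *CEBPB*, a transcription factor of acute inflammation, had 11.7 CPM in *Sca*/+ against 68.6 CPM in WT (-2.55, -3.72 to -1.56), and *PIM1* 14.3 CPM in *Sca*/+ against 53.4 CPM in WT (-1.90, -2.96 to -0.98). *MMP9*, another member, did not pass the rule, with 87.2 CPM in *Sca*/+ against 133 CPM in WT (-0.61, -1.03 to -0.20). Receptors of microbial products and their adaptors had 3 of 15 members lower and none higher. *TLR5*, the flagellin receptor, had 7.81 CPM in *Sca*/+ against 36.1 CPM in WT (-2.21, -3.72 to -0.99), and *BCL10*, an adaptor of antigen receptor signaling, was at 1 step in *Sca*/+ and 18.0 CPM in WT (-3.79, -9.15 to -1.18).

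Complement and acute phase genes had 7 of 13 members lower and 1 higher, with a median of -1.11. *C1S*, the protease that starts the classical pathway, had 398 CPM in *Sca*/+ and 859.6 CPM in WT (-1.11, -1.30 to -0.93), and *C2*, its substrate, 16.9 CPM in *Sca*/+ against 118 CPM in WT (-2.80, -3.74 to -1.98). Components of the membrane attack complex fell as well, *C7* with 94.97 CPM in *Sca*/+ against 346 CPM in WT (-1.86, -2.24 to -1.51), *C9* with 5.20 CPM in *Sca*/+ against 57.0 CPM in WT (-3.45, -5.36 to -2.04) and *C6* with 6.50 CPM in *Sca*/+ against 29.6 CPM in WT (-2.19, -3.88 to -0.85). *CP*, the plasma copper oxidase ceruloplasmin, was the most abundant of the list, with 830.0 CPM in *Sca*/+ against 2273 CPM in WT (-1.45, -1.58 to -1.33). A pair of genes listed by LOC number that the RefSeq annotation names *C3* and *TF*, chosen after their values were seen, differed in the same direction. *C3*, the central complement component, had 57.2 CPM in *Sca*/+ against 131 CPM in WT (-1.19, -1.70 to -0.71), and *TF*, transferrin, 185 CPM in *Sca*/+ against 696 CPM in WT (-1.91, -2.18 to -1.66). In posterior mesenchyme *C1S* had 147 CPM in *Sca*/+ and 27.8 CPM in WT (2.40, 1.85 to 3.00), and in anterior epithelium 14.7 CPM in *Sca*/+ against 122 CPM in WT (-3.06, -3.67 to -2.49).

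Markers of leukocytes did not move as one. Of 44 listed, 8 were compared, 3 fell and none rose, and 6 were below 0 and 2 above it. Their summed level was 576.3 CPM in *Sca*/+ and 808.3 CPM in WT. *PTPRC* (CD45), which all leukocytes carry, had 15.6 CPM in *Sca*/+ and 136 CPM in WT (-3.13, -4.11 to -2.29), *NCF1*, of the phagocyte oxidase, 15.6 CPM in *Sca*/+ against 90.9 CPM in WT (-2.54, -3.53 to -1.69), and the phosphatase *PTPN6* 35.1 CPM in *Sca*/+ against 75.8 CPM in WT (-1.11, -1.78 to -0.49). The macrophage receptor *CSF1R* had 121 CPM in *Sca*/+ against 133 CPM in WT (-0.13, -0.51 to 0.23), and *CD74*, of antigen presentation, 48.1 CPM in *Sca*/+ against 63.5 CPM in WT, a difference of -0.40. *ARHGDIB*, of the same list, had a difference above 0 that was short of the rule, with 207 CPM in *Sca*/+ against 137 CPM in WT (0.59, 0.28 to 0.90). None of the 8 compared genes of antigen presentation passed the rule. The part of leukocytes in the differences of NF-kappaB targets and complement was not tested.

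Signal receptors and interferon genes went both ways. Of 19 cytokines, chemokines and receptors 2 rose and 4 fell. *IL11RA*, the receptor of interleukin 11, had 24.7 CPM in *Sca*/+ and 7.94 CPM in WT (1.64, 0.49 to 2.86), and *TNFRSF12A*, the receptor of TWEAK, 16.9 CPM in *Sca*/+ against 67.1 CPM in WT (-1.99, -2.95 to -1.14). Of 13 interferon response genes 2 rose and 1 fell (15.4% and 7.7%, against 11.5% and 8.37% of all genes). The one that fell, *EIF2AK2* (PKR), a kinase that senses double-stranded RNA, had 16.9 CPM in *Sca*/+ against 55.6 CPM in WT (-1.72, -2.69 to -0.86).

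Immediate early genes, which cells induce within minutes of growth factors or stress, had 10 of 28 members lower and 2 higher. Their median was -0.60, and -0.28 where both columns had at least 20 steps. That filter asks for a higher CPM in *Sca*/+ than in WT and so drops more of the genes that fell. *EGR1*, a transcription factor, had 61.1 CPM in *Sca*/+ and 429 CPM in WT (-2.81, -3.27 to -2.38), *DUSP1*, a phosphatase of MAP kinases, 24.7 CPM in *Sca*/+ against 239 CPM in WT (-3.27, -4.02 to -2.61), and the nuclear receptor *NR4A1* 9.11 CPM in *Sca*/+ against 78.0 CPM in WT (-3.10, -4.45 to -2.01). *ZFP36*, *SOCS3*, *PPP1R15A*, *JUNB*, *IER2*, *TRIB1* and *CEBPB* fell too. *RHOB*, a small GTPase of the same list, went the other way, with 194 CPM in *Sca*/+ against 39.0 CPM in WT (2.31, 1.86 to 2.79), as did *JUND*. In anterior epithelium, cut from the same jaws, the list had a median of -0.10, and its genes did not all follow those of mesenchyme. There *EGR1* had 52.7 CPM in *Sca*/+ and 238 CPM in WT (-2.17, -2.50 to -1.86) and *RHOB* 395 CPM in *Sca*/+ against 80.05 CPM in WT (2.30, 2.02 to 2.60). *DUSP1* differed by -1.47 (-2.02 to -0.94) in that tissue, whereas *NR4A1* had 24.4 CPM in *Sca*/+ against 15.6 CPM in WT (0.65, -0.10 to 1.44). The part of the shared dissection in these values was not tested.

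Chaperone genes were found on both sides of the rule. Of 25 genes of the unfolded protein response 3 fell (12.0%, against 8.37% of all genes) and none rose, with a median of -0.43. *HSP90B1*, the ER chaperone GRP94, had 256 CPM in *Sca*/+ and 626 CPM in WT (-1.29, -1.52 to -1.06), *MANF* 29.9 CPM in *Sca*/+ against 82.3 CPM in WT (-1.46, -2.17 to -0.80), and *CALR*, calreticulin, 489 CPM in *Sca*/+ against 863 CPM in WT (-0.82, -0.99 to -0.65), short of the rule. Of 33 heat shock and chaperonin genes 7 fell and 5 rose (21.2% and 15.2%, against 8.37% and 11.5% of all genes). Their median of -0.30 was 0.04 under a filter at a mean of 5 log2 CPM. *HSPA8*, the constitutive HSP70 of the cytosol, had 72.8 CPM in *Sca*/+ against 291 CPM in WT (-2.00, -2.43 to -1.59), whereas *HSPA2* had 394 CPM in *Sca*/+ against 115 CPM in WT (1.78, 1.50 to 2.07). The abundant *HSP90AB1* had 592 CPM in *Sca*/+ against 467 CPM in WT (0.34, 0.17 to 0.52), short of the rule. Among the 29 genes of glycolysis and hypoxia 4 fell and none rose. The oxygen-responsive factor *HIF1A* had 207 CPM in *Sca*/+ against 458 CPM in WT (-1.15, -1.41 to -0.89), and *PFKFB3*, which speeds glycolysis, 24.7 CPM in *Sca*/+ against 143 CPM in WT (-2.53, -3.29 to -1.85). *GAPDH*, an enzyme of glycolysis, had 1534 CPM in *Sca*/+ against 811 CPM in WT (0.92, 0.80 to 1.04).

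**Figure D4:**
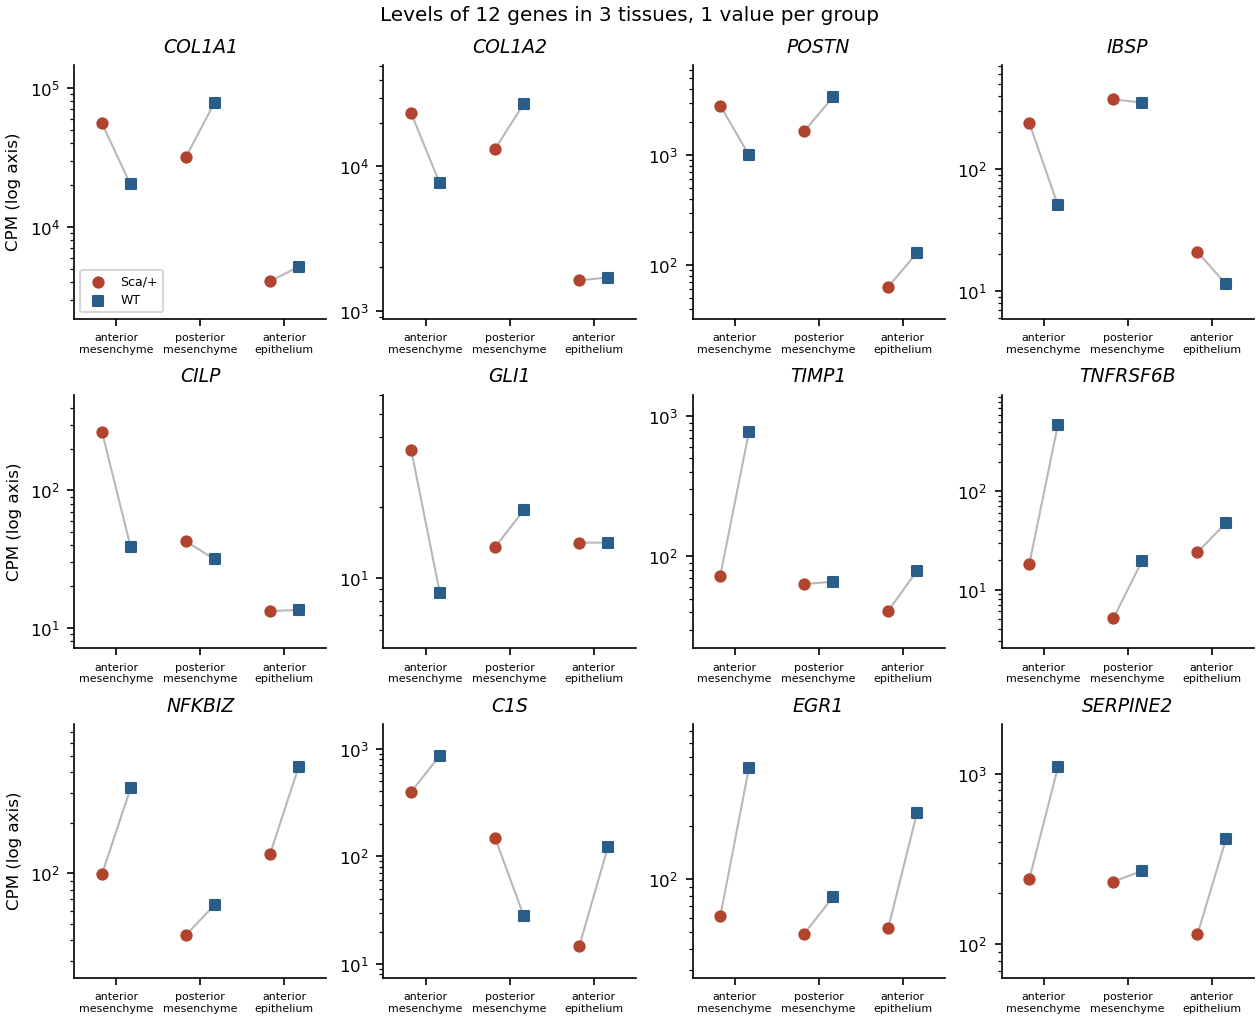
Levels of 12 genes in *Sca*/+ (red circles) and WT (blue squares) anterior mesenchyme, posterior mesenchyme and anterior epithelium (CPM, log axes that differ between panels, 1 value per group, lines join the groups of a tissue). *COL1A1*, *COL1A2* and *POSTN* are higher in *Sca*/+ in anterior mesenchyme and lower in posterior mesenchyme. *TIMP1*, *TNFRSF6B*, *NFKBIZ*, *EGR1* and *SERPINE2* have differences below 0 in the 3 tissues. In posterior mesenchyme only that of *TNFRSF6B* among these passes the rule.

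Many genes of the cytosolic ribosome rose, whereas more genes of ribosome assembly fell than rose. Of 71 cytosolic ribosomal proteins 31 rose, none fell and 70 were above 0, with a median of 0.96, and the summed share of the list was 6.83% of the *Sca*/+ column and 4.16% of the WT column. *RPSA* had 2401 CPM in *Sca*/+ and 1007 CPM in WT (1.25, 1.15 to 1.36). The medians in posterior mesenchyme and anterior epithelium were 1.15 and 1.04, of the same sign as in anterior mesenchyme. Of 53 translation factors 7 rose (13.2%, near the 11.5% of all genes) and none fell. *EEF2*, which moves the ribosome along the message, had 2996 CPM in *Sca*/+ against 1049 CPM in WT (1.51, 1.42 to 1.61), and *EEF1A1*, which brings in the transfer RNA, 8642 CPM in *Sca*/+ against 4829.9 CPM in WT (0.84, 0.79 to 0.89). Of 63 ribosome biogenesis genes 14 fell and 5 rose (22.2% and 7.9%, against 8.37% and 11.5% of all genes). Their median was only -0.15, and 0.03 where both columns had at least 20 steps, a filter that drops more of the genes that fell. The summed level of the 63 was 4335 CPM in *Sca*/+ and 4347 CPM in WT. *POLR1A*, the largest subunit of RNA polymerase I, had 11.7 CPM in *Sca*/+ against 41.1 CPM in WT (-1.81, -3.01 to -0.79), *RRP9*, a nucleolar protein, 2.60 CPM or 2 steps in *Sca*/+ against 25.3 CPM in WT (-3.28, -6.38 to -1.32), and the abundant helicase *DDX21* 1220.2 CPM in *Sca*/+ against 896 CPM in WT (0.44, 0.32 to 0.57).

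In mitochondria, 5 of 38 genes of the tricarboxylic acid cycle and fatty acid oxidation rose (13.2%, near the 11.5% of all genes) and none fell, with a median of 0.53. *DECR1*, of fatty acid oxidation, had 50.7 CPM in *Sca*/+ and 10.1 CPM in WT (2.33, 1.42 to 3.32), and fumarase, *FH*, 76.8 CPM in *Sca*/+ against 36.1 CPM in WT (1.09, 0.52 to 1.66). Of 38 respiratory chain genes 6 rose and 2 fell, and *SDHA*, of complex II, did not pass the rule at 79.4 CPM in *Sca*/+ against 118 CPM in WT (-0.58, -1.03 to -0.14). Mitochondrial ribosomal proteins went both ways, 14 higher and 6 lower of 71. Redox and metal genes had 8 of 37 members higher and 5 lower. Catalase, *CAT*, had 94.97 CPM in *Sca*/+ against 32.5 CPM in WT (1.55, 0.99 to 2.12), whereas thioredoxin reductase, *TXNRD1*, was at 2.60 CPM or 2 steps in *Sca*/+ and 33.9 CPM in WT (-3.71, -6.79 to -1.77), and the peroxiredoxin *PRDX1* at 10.4 CPM in *Sca*/+ against 56.3 CPM in WT (-2.44, -3.70 to -1.39).

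Several mitotic genes fell, whereas replication genes went both ways. Of 56 compared genes of the G2 and M phases 12 fell, none rose and 40 were below 0. Their median was -0.41, and -0.11 where both columns had at least 20 steps, a filter that drops more of the genes that fell. *NUF2*, of the kinetochore, had 3.90 CPM or 3 steps in *Sca*/+ against 15.9 CPM in WT (-2.03, -4.41 to -0.29), *CKAP2*, of the spindle, 11.7 CPM in *Sca*/+ against 39.7 CPM in WT (-1.76, -2.96 to -0.73), and *MKI67*, which coats mitotic chromosomes, 230.3 CPM in *Sca*/+ against 354 CPM in WT (-0.62, -0.88 to -0.37). *CCNB1*, cyclin B1, did not pass the rule, with 31.2 CPM in *Sca*/+ against 23.8 CPM in WT (0.39, -0.43 to 1.19). By in situ hybridization the study reported *CCNB1* raised in epithelium and mesenchyme of *Sca*/+ anterior dentary tooth germs at the initiation stage. It also reported increased proliferation in mutant teeth from staining of PCNA and phosphorylated histone H3. Those are stainings of sections, whereas the values here are RNA levels of bulk tissue. Of 46 genes of S phase 6 rose and 3 fell, with a median of 0.20. These shares, 13.0% and 6.5%, are near the 11.5% and 8.37% of all genes. The primase *PRIM1* had 26.0 CPM in *Sca*/+ against 6.50 CPM in WT (2.00, 0.80 to 3.32), *RFC2*, of the clamp loader, 135 CPM in *Sca*/+ against 51.2 CPM in WT (1.40, 0.95 to 1.86), and the clamp itself, *PCNA*, 62.4 CPM in *Sca*/+ against 70.7 CPM in WT (-0.18, -0.71 to 0.33). *SOX2*, a stem cell factor of the dental lamina, had 18.2 CPM in *Sca*/+ against 10.1 CPM in WT (0.85, -0.33 to 2.03). Of 22 cell cycle inhibitors and p53 targets 3 rose and 2 fell, shares of 13.6% and 9.1% that are also near those of all genes. Those that fell were *GADD45A*, a stress sensor, and the kinase *PLK3*. *GADD45A* had 15.6 CPM in *Sca*/+ against 56.3 CPM in WT (-1.85, -2.86 to -0.96), and *PLK3* 6.50 CPM in *Sca*/+ against 39.7 CPM in WT (-2.61, -4.29 to -1.30).

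Genes that handle thyroid hormone were among the leading genes of both directions. *CRYM*, which binds the hormone in the cytosol, had the largest positive difference of all genes compared, with 37.7 CPM in *Sca*/+ and 1.44 CPM, or 2 steps, in WT (4.71, 2.73 to 7.82). *DIO2*, the enzyme that makes the active hormone, had 105 CPM in *Sca*/+ against 568 CPM in WT (-2.43, -2.78 to -2.10), and its levels in *Sca*/+ and WT posterior mesenchyme were 561 and 728 CPM. Of the 35 genes of nuclear receptors and hormone handling 5 rose and 3 fell (14.3% and 8.6%, near the 11.5% and 8.37% of all genes). *RDH10*, of retinoic acid synthesis, had 44.2 CPM in *Sca*/+ against 10.8 CPM in WT (2.03, 1.12 to 3.01), and the glucocorticoid receptor *NR3C1* 325 CPM in *Sca*/+ against 284 CPM in WT (0.19, -0.04 to 0.43). *STC2*, stanniocalcin 2, a secreted glycoprotein, had 10.4 CPM in *Sca*/+ against 80.1 CPM in WT (-2.94, -4.19 to -1.92). Of 22 clock genes 3 rose (13.6%, near the 11.5% of all genes) and none fell. *NPAS2*, which pairs with BMAL1, had 67.7 CPM in *Sca*/+ against 23.8 CPM in WT (1.51, 0.85 to 2.18), and the repressor *NR1D1* 42.9 CPM in *Sca*/+ against 16.6 CPM in WT (1.37, 0.56 to 2.21).

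Other cell types of the jaw were represented by few compared markers. Of 11 endothelial markers 2 rose and none fell, with a median of 0.55 that was 0.18 under a filter at a mean of 5 log2 CPM, and with summed levels of 1901 CPM in *Sca*/+ and 1581 CPM in WT. *CDH5*, the cadherin of vessel walls, had 126 CPM in *Sca*/+ and 66.4 CPM in WT (0.93, 0.50 to 1.35), and *VWF* 922 CPM in *Sca*/+ against 815 CPM in WT (0.18, 0.04 to 0.32). The 10 markers of pericytes and smooth muscle added up to 861.2 and 673.4 CPM and the 5 of nerve and glia to 1037 and 588.9 CPM in *Sca*/+ and WT. *PMP22*, a myelin protein, had 381 CPM in *Sca*/+ against 206 CPM in WT (0.89, 0.65 to 1.13), and *PRX*, of Schwann cells, 40.3 CPM in *Sca*/+ against 13.0 CPM in WT (1.63, 0.75 to 2.56). Markers of osteoclasts had no member of 7 past the rule, those of chondrocytes 2 higher of 8, and of 9 listed melanocyte markers none was compared. *CD36*, a fatty acid transporter of fat and vessel cells, had 179.5 CPM in *Sca*/+ against 49.1 CPM in WT (1.87, 1.44 to 2.31).

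Further lists had few members past the rule, mostly below the 11.5% and 8.37% of all genes. Among 77 spliceosome genes 7 rose and 1 fell, among 40 proteasome genes 6 and 1, among 66 genes of the early secretory pathway 3 and 1, and among 50 genes of the actin cytoskeleton 3 and 1. Chromatin genes had 3 of 70 members on each side (4.3%), lysosomal genes 2 of 46 (4.3%), and integrins 1 of 30 higher and 2 lower. *ACTB*, beta-actin, had 1885 CPM in *Sca*/+ and 2004 CPM in WT (-0.09, -0.18 to 0.00). Among 50 cilium genes 4 rose and 6 fell. *IFT74*, of the transport along cilia, had 18.2 CPM in *Sca*/+ against 52.7 CPM in WT (-1.53, -2.47 to -0.69), and *TCTN1*, of the transition zone, 33.8 CPM in *Sca*/+ against 7.94 CPM in WT (2.09, 1.02 to 3.26).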

How the data were processed

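Dental mesenchyme and dental epithelium of the anterior and posterior jaw were cut from sections of hatchlings by laser capture microdissection, and libraries were made after depletion of ribosomal RNA. Reads were trimmed (Trimmomatic), aligned (STAR) and normalized (edgeR) by the authors, and the versions and the genome build are not given in the sources used here. They deposited 1 table of log2 CPM with 1 column for each genotype, position and tissue, although each group has 3 samples. The columns are named as means, yet their values move in whole steps, and whether each rests on a single library or on a pool is not given in the sources used here. The deposited log2 values were turned into CPM, and the step between the lowest values of a column was used as 1 count. Values lay within 0.0052 CPM of a whole multiple of the step, over 789353 to 3264515 steps in the 7 usable columns. The WT posterior epithelium column was not used, as 11120 of its 11126 values exceed the value before them by the same increment.

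The difference is the *Sca*/+ minus the WT log2 CPM, over genes with a mean of at least 3, with a rule of size of 1 log2 unit. No replicate test was possible with 1 column a group, so the replicate model of the study's methods was not fitted. Intervals are exact Clopper-Pearson limits on the 2 step counts (95%, counting error only). Gene lists and marker lists, 66 in all, were written by hand from textbook knowledge of mammals, and they, like the comparison itself, were chosen with earlier results of these data known. Named were genes drawn from the 20 of each direction with the largest difference by the interval bound nearest to 0, from every list at most 4 members by absolute difference and 2 by level, the 10 most abundant genes, the EDA pathway and NF-kappaB proteins in full, tooth regulators past the rule, and genes the study names. Some genes that this rule names are not reported here. Genes known only by a LOC identifier were left unnamed, since no product names were used here. Other members are named only as counted, and *TF* and *C3* were named after their values were seen. RefSeq PviZW2.1 was used for names alone (8236 of 8715 symbols and 298 of 1272 LOC numbers matched). Intervals came from scipy 1.17.1, tables were handled in pandas 2.3.3 and numpy 2.4.6 under Python 3.11.15, plots were drawn in matplotlib 3.10.9, and the calculation was tested on simulated data. Other filters, offsets, thresholds, scalings and a correction for level were tried, and a correction for protein length was not run because no protein lengths were used here.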

Additional observations from a re-analysis of the deposited data

Results flagged for a closer look

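For some named genes the *Sca*/+ minus WT difference passed 1 log2 unit in one direction in anterior mesenchyme and in the other direction in another tissue, with counting intervals on opposite sides of 0. The difference between the tissues was not tested, since each group has 1 value, and the same animals gave all tissues. Of the 380 named genes, 8 met this in the comparison with posterior mesenchyme and 8 in that with anterior epithelium. Many named genes were chosen for large differences in anterior mesenchyme, so these counts give no rate. The share over all genes compared was not computed.

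Set against posterior mesenchyme, 3 matrix genes were higher in *Sca*/+ in the anterior and lower in the posterior jaw. The difference in anterior and posterior mesenchyme was 1.46 and -1.30 for *COL1A1*, 1.61 and -1.04 for *COL1A2*, and 1.49 and -1.02 for *POSTN*. The lysosomal protease gene *CTSF* had 1.29 and -1.07, the clock gene *NPAS2* 1.51 and -1.54, and the primase gene *PRIM1* 2.00 and -2.91, the last on 5 steps in *Sca*/+ posterior mesenchyme. In the other direction *C1S* had -1.11 and 2.40, and *IL22RA1*, a receptor chain for interleukin 22, -1.61 and 2.33. The *IL22RA1* values rest on 4 steps in *Sca*/+ anterior and 4 in WT posterior mesenchyme, with an anterior interval of -3.61 to -0.05.

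Set against anterior epithelium, 5 genes were higher in *Sca*/+ mesenchyme and lower in *Sca*/+ epithelium. The difference in mesenchyme and epithelium was 1.49 and -1.02 for *POSTN*, 1.41 and -1.05 for *PLOD2*, 1.56 and -1.86 for *SDC3*, 1.72 and -1.20 for *HHAT*, and 1.02 and -2.65 for *ERG*, a transcription factor of endothelium. *FZD4* had -1.96 and 1.10, *SOX4* -1.32 and 2.52, and *UHRF1*, which maintains DNA methylation, -1.47 and 1.74. The *SOX4* difference in mesenchyme rests on 6 steps in *Sca*/+, with an interval of -2.89 to -0.01. Mesenchymal genes are low in the epithelium, with *SDC3* at 1.95 CPM, or 4 steps, in *Sca*/+ and 7.08 CPM in WT epithelium.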

How the results depend on the processing

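With 1 value a group, depth set how small a difference could be told from counting error, and 117 genes had at most 3 steps in *Sca*/+ and 20 in WT. No paired analysis was possible because each group has 1 column, and for the same reason no replicate could be left out. A filter at a mean of 5 left 5589 genes, with 407 higher and 282 lower, all with an interval off 0, and a median of 0.0135. With at least 20 steps in both columns 6467 genes were left, with 543 higher, 222 lower and a median of 0.0953. A rule of 0.58 log2 units gave 2370 higher and 1950 lower (1727 and 1293 with an interval off 0), and a rule of 2 gave 147 and 140 (147 and 138). Scaling without ribosomal proteins moved the median of all genes to -0.15 and gave 1064 lower genes with an interval off 0. Scaling without ribosomal proteins and the 3 collagens, chosen after seeing the data, shifted all differences by -0.10 and gave 933 higher and 1025 lower, 47.6% of them higher, with a median of -0.0578. Centering and adjustment for level set the median to 0, adjustment gave 991 higher and 978 lower, and log2(CPM + 4) gave 447 lower with an interval off 0. Of 650 recalculated list medians 102 moved by more than their counting error and 40, of 21 lists, changed sign, 11 of them when scaled without ribosomal proteins. The main medians of those 21 lists were at most 0.32 in size. Those that changed sign from a value beyond counting error were heat shock genes (0.0371 at a filter of 5), cytokines (0.0668 with at least 20 steps), matrix proteases (-0.0057 scaled without ribosomal proteins, -0.12 as a mean), the proteasome (-0.0010 scaled without ribosomal proteins), other collagens (-0.0495 adjusted for level) and actin genes (0.0304 as a mean). Named genes were recalculated only under the offsets, centering, scalings and adjustment for level. Offsets cannot change a sign, and centering and the scalings shifted differences by less than the rule of 1 log2 unit. That no named gene past the rule turned its direction in 1326 recalculations was therefore largely fixed in advance and is no sign of robustness. Those short of the rule turned in 56 cases, and the cause of these changes was not tested.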

Other observations

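Genes of other groups, named by the same rule, are added here as values. In lipid synthesis, of 20 compared genes 2 rose and 3 fell (10.0% and 15.0%, against 11.5% and 8.37% of all genes). *FASN*, fatty acid synthase, had 29.9 CPM in *Sca*/+ against 70.0 CPM in WT (-1.23, -1.95 to -0.56) and *FDFT1*, squalene synthase, 31.2 CPM in *Sca*/+ against 5.77 CPM in WT (2.44, 1.23 to 3.80). Of 28 apoptosis genes 2 rose and 3 fell, and *BAD*, which promotes cell death, had 10.4 CPM in *Sca*/+ against 1.44 CPM in WT (2.85, 0.52 to 6.12). Of 15 genes of ATP synthase 2 rose and none fell, and of 23 genes of laminins and the basement membrane 1 rose and none fell.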
